A study of Mus musculus with 6 samples.

Results

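Lysophosphatidic acid (LPA) is a signalling lipid made outside the cell, chiefly by autotaxin, the secreted lysophospholipase D encoded by Enpp2, and it acts through a family of G protein-coupled receptors. LPA1, LPA2 and LPA3 belong to the endothelial differentiation gene branch of these receptors, while LPA4 and LPA6 belong to the purinergic branch. In the mouse uterus LPA3 is known from luminal epithelium in early pregnancy, and mice without it implant late, with crowded embryos and low uterine prostaglandin. The 6 genes examined were the receptors Lpar1, Lpar2, Lpar3, Lpar4 and Lpar6 and the enzyme gene Enpp2. They were picked by name, out of 20145 genes matched to the array by RefSeq accession, and all 6 were among the 14847 genes tested. Together they had 7 probes.

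Whole uteri at gestation day (GD) 3.5 of natural pregnancy, before the embryo attaches, were compared between 3 mice of the genotype Sox17 f/f and 3 of the genotype Sox17 ed/ed, with 1 uterus on each of 6 Agilent 1-colour arrays. Both genotypes carried floxed Sox17, were mated at 8 to 10 weeks of age and had their embryos flushed out. Sox17 ed/ed females also carried 1 copy of iCre at the Ltf locus, which removes Sox17 in the uterine epithelium from puberty on, and the Sox17 f/f littermates carried no iCre. Sox17 in endothelial cells is outside the reach of this recombinase, and RNA came from all layers of the uterus.

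The 2 probes of Sox17 were lower in Sox17 ed/ed uteri by log2 fold changes of -2.45 (SE 0.09) and -2.97, and where they lie relative to the deleted part of the gene was not examined. Across all genes, 12.5% passed the call used here, an unadjusted limma p under 0.01 with a change of at least 1.4-fold, with 6.04% of genes higher and 6.47% lower in the mutant. An adjusted p under 0.05 was reached by 18.9% of genes, and the 3 arrays of each genotype did not overlap for 40.6%. Between 56.8% and 65.7% of spots were well above background on an array, 0 were saturated, and pairs of arrays correlated at 0.990 to 0.995 within a genotype and at 0.963 to 0.965 between genotypes. All arrays lay on 1 slide with each genotype in its own line, so position on the slide and genotype cannot be told apart.

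Of the 6 genes, 2 passed the call, Lpar3 lower and Enpp2 higher in Sox17 ed/ed uteri, and 3 had arrays that did not overlap between the genotypes. Over all genes tested, these shares were 12.5% and 40.6%. The promoter of Lpar3, the gene with the largest change among the 6, is shown beside that of Lpar4, a receptor whose promoter differs from it in base composition. Each runs 5′ to 3′ on the gene's own strand, from 250 bases before to 50 bases after the transcription start of RefSeq on the GRCm38.p6 assembly. Lpar3 lies at chr3:146220711-146221010 on the plus strand and Lpar4 at chrX:106920375-106920674 on the plus strand. Capitals mark any match, on either strand, to the SOX core ATTGT, the forkhead motif TGTTTNC, the progesterone receptor half-site TGTTCT, the estrogen receptor half-site GGTCA or the GATA motif AGATAA.
Lpar3: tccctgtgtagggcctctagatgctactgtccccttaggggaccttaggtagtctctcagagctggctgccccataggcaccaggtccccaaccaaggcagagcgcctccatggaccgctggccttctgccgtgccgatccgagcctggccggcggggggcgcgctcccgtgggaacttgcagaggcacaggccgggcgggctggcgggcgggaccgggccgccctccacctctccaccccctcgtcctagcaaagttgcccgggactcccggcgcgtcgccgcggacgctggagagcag
Lpar4: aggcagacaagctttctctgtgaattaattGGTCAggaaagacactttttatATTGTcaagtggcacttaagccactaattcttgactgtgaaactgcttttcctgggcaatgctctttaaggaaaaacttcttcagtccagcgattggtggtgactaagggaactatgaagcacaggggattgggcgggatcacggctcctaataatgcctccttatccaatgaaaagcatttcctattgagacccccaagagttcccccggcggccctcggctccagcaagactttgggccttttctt

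No letters are in capitals in the Lpar3 window, which says only that these 5 motifs are not spelled there. The Lpar4 window holds 1 estrogen receptor half-site, starting 220 bases before the transcription start, and 1 SOX core, starting 198 bases before it, and these do not overlap. Among 32851 mouse promoters of the same length, 31.0% hold a SOX core, 20.5% the forkhead motif, 19.0% a progesterone receptor half-site, 40.5% an estrogen receptor half-site and 11.2% the GATA motif, so a single match is common. The Lpar3 window is 70.3% G and C with 25 CpG dinucleotides, against 46.7% and 6 for Lpar4 and medians of 52.7% and 7 over all promoters. Promoter entries were matched for 5 of the 6 genes, with 7 entries in all. Of the others, 1 of the 3 Lpar1 entries (chr4:58499354-58499653) holds 4 SOX cores, the Lpar2 entry holds 1 estrogen receptor half-site, and the Lpar6 entry holds 1 of these half-sites and 1 forkhead motif. These matches are letters in a sequence, and no binding was measured here.

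Lpar3, the LPA receptor with an established part in implantation, fell in Sox17 ed/ed uteri. Its normalized log2 signal, from the probe for NM_022983, was 9.25, 9.37 and 9.48 for Sox17 f/f and 5.12, 5.52 and 5.31 for Sox17 ed/ed. Every Sox17 f/f array was above every Sox17 ed/ed array, with 3.73 log2 units between the nearest pair. The means were 9.37 ± 0.12 and 5.31 ± 0.20 (SD, n = 3 each), a log2 fold change of -4.05 (SE 0.12, 95% interval -4.35 to -3.76). This is a 16.6-fold lower signal, or 6.02% of the Sox17 f/f level (limma adjusted p = 1.54e-05), and it ranked 42nd among the lowest log2 fold changes of the 14847 genes. With 3 arrays against 3, an exact two-sided permutation test of 1 gene cannot go below 0.1, the value reached by each gene whose arrays did not overlap.

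The Lpar3 spot remained measurable without epithelial Sox17, being well above background on all 6 arrays. The background-subtracted signal as deposited was 583, 690 and 759 for Sox17 f/f and 34.6, 42.9 and 39.8 for Sox17 ed/ed, so the genotypes were also separate before any scaling between arrays. The raw median brightness of the spot was 699.5 to 937 against 73 to 92, over a local background of 20.5 to 23. With normexp background correction, whose offset of 50 compresses low signals by construction, the log2 fold change was -2.93, or 7.63-fold lower. The call held under all 16 alternatives. In whole uterus, fewer cells of a type and less RNA per cell cannot be told apart. Of 10 uterine epithelial markers, 4 rose (Krt19, Krt7, Krt8 and Cdh1) and Cldn7 fell. Over all genes, 6.04% were higher and 6.47% lower by the call. The log2 of the summed signals of the 10 was 15.47 to 15.59 for Sox17 f/f and 15.70 to 15.99 for Sox17 ed/ed. Marker sums here are all of this kind, in which the brightest genes weigh most. The higher sum rested on Krt19, since without it the other 9 markers summed to 15.33 to 15.47 and 15.22 to 15.44. The part of epithelial cell number in the Lpar3 value was not tested.

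**Figure D1:**
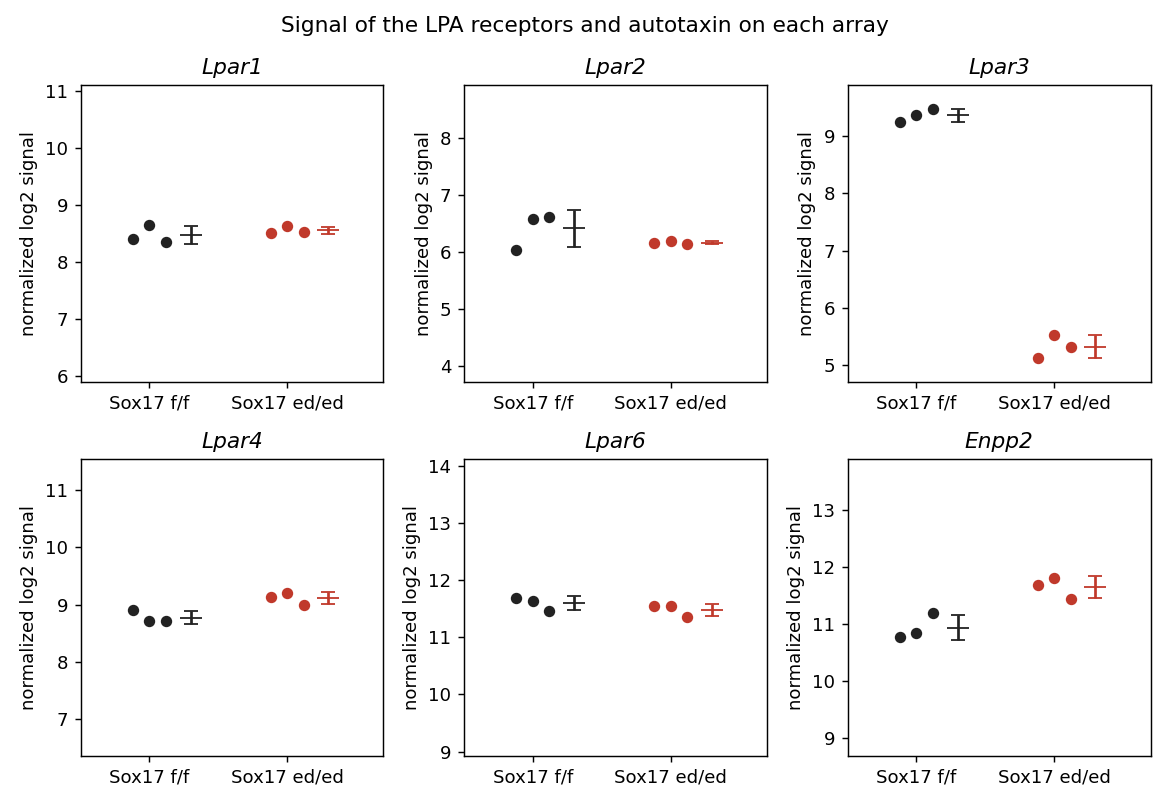
Normalized log2 signal of the 5 LPA receptor genes and Enpp2 (y axes of equal span), with points for the 3 arrays of each genotype and a bar and whisker for their mean and SD. Lpar3 drops from a mean of 9.37 to 5.31, Enpp2 and Lpar4 lie slightly higher in Sox17 ed/ed uteri without overlap, and the arrays of Lpar1, Lpar2 and Lpar6 overlap.

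Lpar1, the broadly expressed receptor of the endothelial differentiation gene branch, differed by less than the spread between arrays. Its log2 signal was 8.39, 8.64 and 8.35 in Sox17 f/f uteri and 8.51, 8.62 and 8.52 in Sox17 ed/ed uteri. The ranges were interleaved, with a log2 fold change of 0.09 (SE 0.10) and a limma adjusted p of 0.565. Its 95% interval, -0.14 to 0.32, lies inside a change of 1.4-fold either way, which is 0.49 on the log2 scale.

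Lpar2, the remaining receptor of that branch here, was measured by 2 probes. The brighter one read 6.04, 6.58 and 6.61 in Sox17 f/f uteri and 6.16, 6.19 and 6.13 in Sox17 ed/ed uteri, and on no array was the other well above background. Sox17 f/f array 1 was below all 3 Sox17 ed/ed arrays, and the other two were above them. The log2 fold change was -0.25 (SE 0.16, 95% interval -0.63 to 0.14, limma adjusted p = 0.328). Without Sox17 f/f array 1 it was -0.43 with an adjusted p of 0.0244, still short of 1.4-fold.

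Lpar4, of the purinergic branch, read 8.90, 8.71 and 8.70 in Sox17 f/f uteri and 9.14, 9.20 and 8.998 in Sox17 ed/ed uteri. The genotypes did not overlap, but the nearest arrays were only 0.10 apart. The log2 fold change of 0.34 (SE 0.09, 95% interval 0.13 to 0.56), or 1.27-fold, had a limma adjusted p of 0.0453 and did not reach the 1.4-fold of the call. Its adjusted p was under 0.05 in 6 of 17 settings, the one reported included, and ranged from 0.00865 to 0.129.

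Lpar6, the other purinergic receptor, is encoded inside the span of Rb1. Its log2 signal was 11.70, 11.65 and 11.45 in Sox17 f/f uteri and 11.55, 11.55 and 11.36 in Sox17 ed/ed uteri, with overlapping ranges. The log2 fold change was -0.11 (SE 0.10, 95% interval -0.34 to 0.12, limma adjusted p = 0.454), within 1.4-fold either way, and that of the Rb1 probe was -0.09 (adjusted p = 0.355). The intervals of these 4 receptors did not overlap that of Lpar3. Lpar5, the receptor outside the 6 genes, had a log2 fold change of 0.27 (95% interval -0.26 to 0.80, adjusted p = 0.445), which became 0.52 and passed the call without Sox17 ed/ed array 1.

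Enpp2, which makes most extracellular LPA from lysophosphatidylcholine, rose. The probe for NM_001136077 read 10.78, 10.85 and 11.19 for Sox17 f/f and 11.69, 11.81 and 11.43 for Sox17 ed/ed. The groups did not overlap, although the highest Sox17 f/f array was within 0.25 of the lowest Sox17 ed/ed array. The means were 10.94 ± 0.22 and 11.65 ± 0.19 (SD, n = 3 each), a log2 fold change of 0.71 (SE 0.15, 95% interval 0.35 to 1.06), or 1.63-fold (limma adjusted p = 0.0214). The call rested on the unadjusted p of 0.0026 and was lost without Sox17 f/f array 1 or 2 or Sox17 ed/ed array 1 or 2, where p was 0.0103 to 0.0113 and the log2 fold change 0.62 to 0.68, and under an ordinary linear model (adjusted p = 0.0774). Direction was kept in every setting, with log2 fold changes of 0.62 to 0.83.

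Markers of cell types that surround the epithelium were read beside Enpp2. Of 10 endometrial stroma markers and of 7 leukocyte markers tested, 0 passed the call, against 12.5% of all genes. With Sox17 f/f first, the log2 of the summed stroma signals was 17.82 to 17.84 against 17.59 to 17.74. For leukocyte markers it was 13.85 to 13.88 against 14.08 to 14.20. The leukocyte sum was higher, as Enpp2 was, with a list median of 0.09. Csf1r was 0.41 higher on the log2 scale (limma adjusted p = 0.0162). With means of 12.89 and 13.30 it weighs heavily in this sum, and the sum without it was not taken. Itgam was at 0.22 (adjusted p = 0.249), Ptprc at -0.06 (adjusted p = 0.606) and Adgre1 at -0.11 (adjusted p = 0.523). The lower stroma sum rested on Dcn, since without it the other 9 summed to 16.83 to 16.89 against 16.81 to 16.94, and Hoxa10 was 0.34 higher on the log2 scale (limma adjusted p = 0.0139) with a list median of 0.05. The part of either cell type in the Enpp2 value was not tested. Adipocyte markers, from tissue rich in autotaxin, summed to 8.29 to 9.15 against 7.54 to 8.27 over the 4 of 8 tested. Of these Pck1 fell, Fabp4 was at -0.78 (adjusted p = 0.107), and Cfd and Adipoq were at 1.08 (adjusted p = 0.253) and 0.95 (adjusted p = 0.515), the latter well above background on 3 of 6 arrays. Without Pck1 the sums were 7.10 to 7.97 against 6.93 to 7.96. The part of adipocytes was not tested either, and Plin1, Lep, Cidec and Retn did not pass the filter on low signal. Smooth muscle markers summed to 18.92 to 19.06 against 18.49 to 18.76, with 1 of 9 lower (Actg2), and 0 of 3 ovary markers tested passed, at 10.09 to 10.53 against 10.20 to 10.45.

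**Figure D2:**
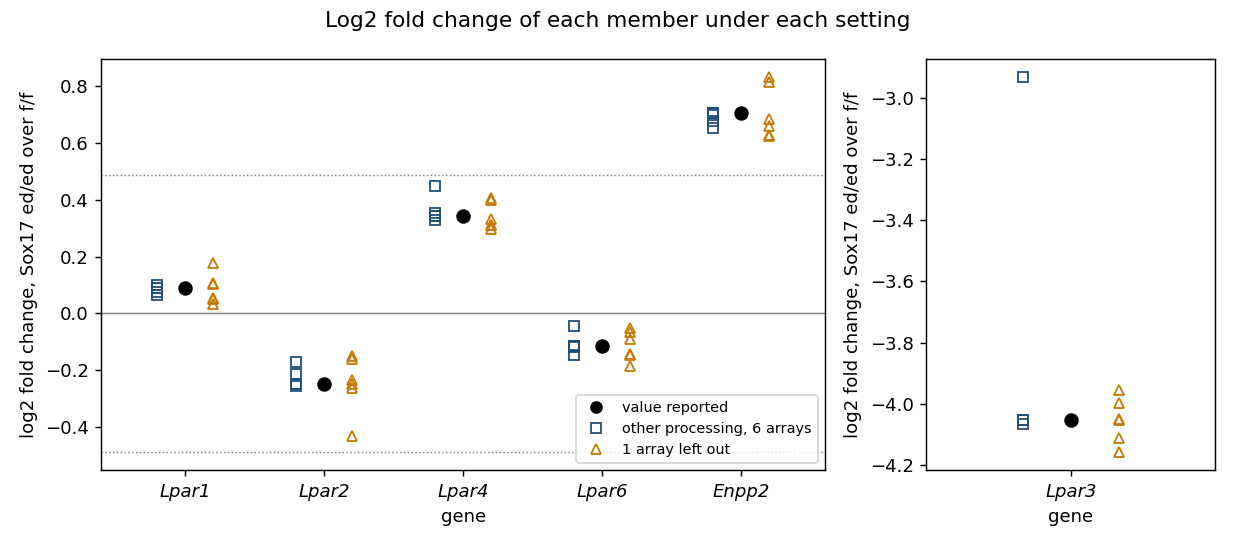
Log2 fold change (y axes) of each gene as reported (black), under the 10 other ways of processing all 6 arrays (squares) and with 1 array left out (triangles); dotted lines mark 1.4-fold, and Lpar3 has its own axis. No gene changes sign, Enpp2 stays between 0.62 and 0.83, and the square at -2.93 for Lpar3 is the normexp background correction.

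Among 11 genes that produce LPA or its precursors, 9 were tested, and 3 rose and 1 fell. Over all genes, 6.04% were higher and 6.47% lower by the call. Besides Enpp2, Gdpd1, a lysophospholipase D of the glycerophosphodiester phosphodiesterase family, rose from 8.39, 8.16 and 8.28 to 9.09, 8.96 and 8.92. The groups did not overlap, with a log2 fold change of 0.71 (limma adjusted p = 0.0031) that passed the call under all 10 other ways of processing and all 6 leave-outs. Its relative Gdpd3 moved the other way.

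Gdpd3 read 11.34, 11.55 and 10.98 in Sox17 f/f uteri and 10.44, 10.44 and 9.65 in Sox17 ed/ed uteri, changing on the log2 scale by -1.12 (95% interval -1.74 to -0.50, limma adjusted p = 0.0300). Array 3 of each genotype was the lowest of its group, and the groups did not overlap. The call was lost without Sox17 f/f array 1 or 2 and under an ordinary linear model. Gpat3, an acyltransferase that makes LPA inside the cell from glycerol phosphate, read 8.17, 8.65 and 8.06 against 8.96, 8.82 and 9.19, a log2 fold change of 0.70 (limma adjusted p = 0.0423). Its call held only without Sox17 f/f array 2 among the 6 leave-outs. The call was also lost with no filter on low signal (adjusted p = 0.0824), under an ordinary linear model (adjusted p = 0.119) and with the replicate block (adjusted p = 0.108). Pla1a, a phospholipase that releases LPA, was at -0.15 (adjusted p = 0.527), Gpam, Gpat2, Gpat4 and Agk did not pass, Liph did not pass the filter and Lipi was not matched to a probe. The median log2 fold change of the 9 genes was -0.05, against -0.0016 over all genes.

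Of 10 genes that break LPA down or reacylate it, 1 passed, against 12.5% of all genes. Agpat4, which turns LPA into phosphatidic acid inside cells, fell from 12.69, 12.50 and 12.73 to 11.70, 11.93 and 11.92. The groups did not overlap, and the log2 fold change was -0.79 (limma adjusted p = 0.0035). The lipid phosphate phosphatase genes Plpp1 and Plpp3, whose products clear extracellular LPA, had values of -0.15 (adjusted p = 0.184) and 0.21 (adjusted p = 0.112), with intervals wholly within 1.4-fold. The median log2 fold change of the 10 genes was 0.02.

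**Figure D3:**
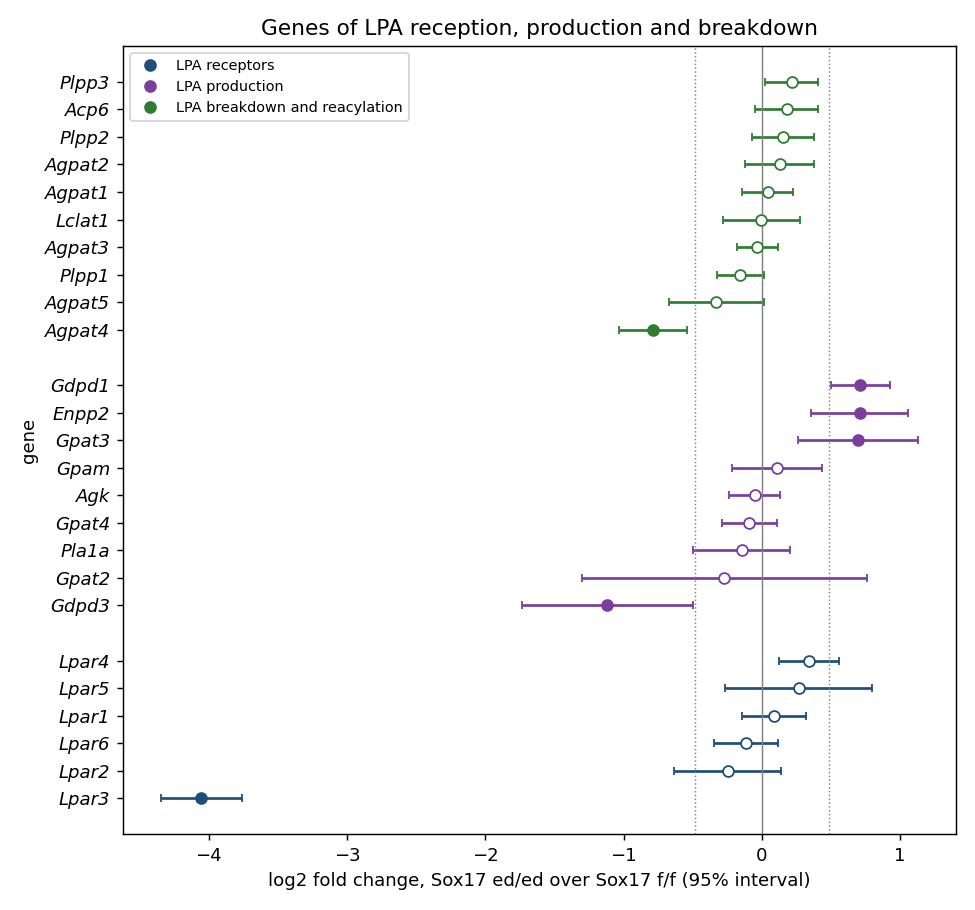
Log2 fold change of Sox17 ed/ed over Sox17 f/f with its 95% interval (x axis) for 25 tested genes of LPA reception, production and breakdown; filled points passed the call and dotted lines mark 1.4-fold. Lpar3 at -4.05 lies far to the left of the other genes, whose values run from -1.12 (Gdpd3) to 0.71 (Gdpd1 and Enpp2).

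Among the G proteins and effectors through which LPA receptors signal, 0 of 16 tested genes passed the call, against 12.5% of all genes. Their median log2 fold change was -0.04, and the count was 1, through Rock2, without array 3 of either genotype. On all arrays Rock2 was at -0.45 (limma adjusted p = 0.0421), short of 1.4-fold. Its other probe was at -0.22 (adjusted p = 0.259 in the fit across probes). Genes of the Gi, Gq and G12/13 alpha subunits ran from -0.25 (Gnai2) to 0.16 (Gnai1).

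Of 10 genes placed downstream of LPA3 or beside it at implantation, 3 rose and 1 fell, against 12.5% of all genes past the call. Ptgs1 and Ptgs2, which encode the cyclooxygenases that begin prostaglandin synthesis, both rose. Ptgs1 read 10.80, 10.72 and 10.78 against 12.89, 12.69 and 12.90, a log2 fold change of 2.06 (95% interval 1.86 to 2.25, limma adjusted p = 3.48e-05). Ptgs2 read 5.79, 5.70 and 5.59 against 6.86, 6.30 and 6.91, a log2 fold change of 0.998 (limma adjusted p = 0.0115) that was 0.56 with normexp. Neither gene overlapped between genotypes.

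Ptger2, a prostaglandin E2 receptor gene, fell. It read 8.40, 9.04 and 8.53 in Sox17 f/f uteri and 4.23, 4.12 and 4.66 in Sox17 ed/ed uteri, where it was well above background on 1 of 3 arrays. It thus passed the filter on low signal through the Sox17 f/f arrays. The fitted log2 fold change was -4.31 (limma adjusted p = 8.07e-05) and -2.52 with normexp, and its size rests on 1 measured Sox17 ed/ed array. Wnt4, a Wnt ligand of decidualizing stroma, rose from 6.63, 6.72 and 6.59 to 8.52, 8.26 and 8.00, a log2 fold change of 1.61 (limma adjusted p = 0.0006). Hbegf and Bmp2, markers of the attachment site, had values of 0.17 (adjusted p = 0.126) and 0.09 (adjusted p = 0.533).

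In the sister pathway of sphingosine 1-phosphate, 9 of 11 genes were tested, and S1pr1, the endothelial receptor, and Spns2, the exporter, fell by 0.85 and 0.74 on the log2 scale (limma adjusted p = 0.000643 and 0.00058). Of 9 endothelial markers 2 fell (Vwf and Esam) and 8 were without overlap. Over all genes, 12.5% passed the call and 40.6% were without overlap. The log2 of the summed endothelial marker signals was 14.26 to 14.52 against 13.74 to 13.92. The part of endothelial cells in the S1pr1 and Spns2 values was not tested. Of the other 7 genes 0 passed.

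The genes whose profiles over the 6 arrays lay closest to Lpar3, by root mean square difference of log2 signals centred on their mean, were Lrrtm2 (0.10), Wnt11 (0.19), Nr4a3 (0.19), Hhip (0.23) and Slc2a3 (0.27). On none of the 3 Sox17 ed/ed arrays were Lrrtm2 and Nr4a3 well above background, so their likeness rests on unmeasured low values. Wnt11 is a Wnt ligand, Hhip a Hedgehog-binding membrane protein and Slc2a3 a glucose transporter, and each was well above background on all 6 arrays. For Enpp2 the closest were Radil (0.058), Vav3 (0.063), Id2 (0.073), Gsta3 (0.085) and Mrnip (0.095). In each of these 5, as in Enpp2, Sox17 f/f array 3 was the highest of its genotype and Sox17 ed/ed array 3 the lowest. The genes were picked by likeness over these same 6 arrays, so a shared order follows largely from the choice.

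**Figure D4:**
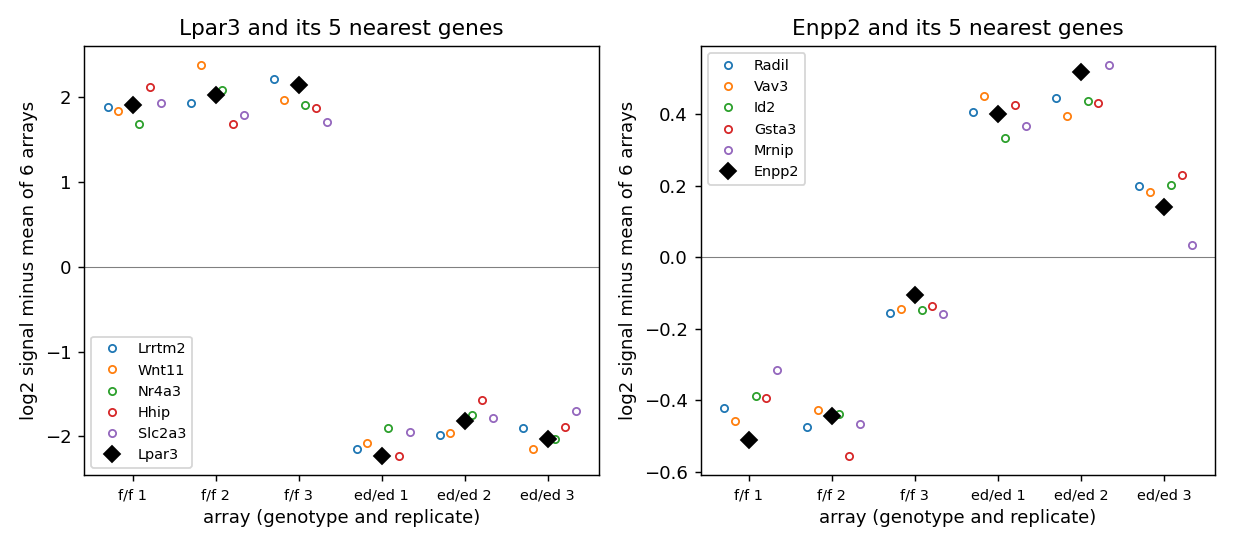
Log2 signal minus the mean of the 6 arrays (y axis) for Lpar3 (left) and Enpp2 (right), black diamonds, and the 5 genes nearest to each (open circles), by array (x axis); the y axes differ in scale. Wnt11, Hhip and Slc2a3 have log2 fold changes of -4.13 to -3.63, Lrrtm2 and Nr4a3 had no Sox17 ed/ed array well above background, and the Enpp2 set has array 3 of both genotypes nearest to 0. Genes were chosen by likeness over these arrays, so shared patterns follow largely from the choice.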

How the data were processed

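RNA of whole uteri, 3 from each genotype, was measured on 6 Agilent mouse arrays in 1 colour, and samples were grouped by the genotype in their titles. For every array the authors deposited a scanner file, and for the series a table of processed values. The values analysed are the background-subtracted spot intensity of the scanner files as deposited, for which Feature Extraction (11.0.1.1 per the file headers, 9.1 in the submitters' processing notes) had corrected each array by itself, leaving arrays unscaled to each other. The table of processed values lay within 0.191% of its mean per probe. Background subtraction leaves low signals uncertain on a log scale.

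From 62976 spots an array, 3671 controls and 169 to 302 outlier spots were left out. Log2 values of spots were quantile normalized, and spots of a probe were then averaged. A probe was kept where at least 3 of 6 arrays had it well above background. The lowest such signal was 13.1 to 18.0. Of 55681 probes, 26582 were matched by accession to RefSeq genes, and the probe with the highest mean stood for a gene. A fit across 32735 probes gave the value of each probe. The gene table is on another assembly than the array's design, so no gene coordinates are given.

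Genotypes were compared by the moderated linear model of limma 3.58.1 under R 4.3.3, and p-values were adjusted by Benjamini-Hochberg over every gene tested. The call, an unadjusted p under 0.01 with at least 1.4-fold, follows the study's methods. Precision is limited by 3 arrays a genotype, and p-values cover only the spread between these uteri. Promoters and plots used Python 3.11.15, pandas 2.3.3, numpy 2.4.6 and matplotlib 3.10.9. On simulated data for this comparison with 14762 genes, 92 of 100 genes changed by 1 on the log2 scale and 100 of 100 changed by 2 were recovered, with 60 unchanged genes called.

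The genes and lists were chosen with earlier results of these data known, so list counts are descriptions. Named were the 6 genes with all their probes, genes of the lists that passed the call, and the 5 nearest profiles to each of the 6 that passed. Other list members were named for their roles after their values were seen. Lists covered LPA reception, production, breakdown and effectors, sphingosine 1-phosphate, genes downstream of LPA3, and markers of epithelium, stroma, smooth muscle, endothelium, leukocytes, adipocytes and ovary.

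Alternatives were a shift by the 75th percentile, normexp with offset 50 (on median spot signals, the column used here in place of mean signals), no filter, a filter on all 6 arrays, the mean of probes, a smallest-p probe, eBayes with an intensity trend, an unmoderated (ordinary) linear model, the replicate number as a block, the table of processed values, an adjusted p under 0.05, and leaving out each array.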

Additional observations from a re-analysis of the deposited data

How the results depend on the processing

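Lpar3 passed the call under all 16 alternatives, with log2 fold changes of -4.16 to -2.93, and Lpar1, Lpar2, Lpar4 and Lpar6 passed under none of them. Enpp2 kept its value of 0.71 but lost the call under the ordinary linear model (adjusted p = 0.0774) and with the replicate block (adjusted p = 0.0748), and ranged from 0.62 to 0.83 when each array was left out in turn, with an adjusted p of 0.00317 to 0.0774 over all settings. The number of the 6 genes that passed was then 1 under the ordinary linear model and with the replicate block. It was 1 to 2 when an array was left out. Among the 6, the call changed for Enpp2 alone in these settings. The number was 1 without Sox17 f/f array 1 or 2 or Sox17 ed/ed array 1 or 2. At an adjusted p under 0.05 it was 3, a threshold that 18.9% of all genes reached. Over all genes, 1496 were lower at that threshold, against 960 by the call, by dropping the fold threshold. Same-numbered arrays deviated from their genotype means with correlations of 0.06, -0.11 and -0.0001, so the numbers were not taken to pair the mice. The LPA production count of 4 was 1 to 3 in the leave-outs, 2 with the replicate block and 1 under the ordinary linear model, through Enpp2, Gdpd3 and Gpat3. In the fit across probes, the adjusted p was 0.0395 for Enpp2 and 0.0790 for Lpar4.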
